A study of Drosophila melanogaster with 46 samples.

Results

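The subject is a set of 260 binding regions of the insulator protein CTCF in whole Drosophila melanogaster larvae at which no peak of CP190, Pita or Su(Hw) was listed. They were chosen from the 808 larval wild-type CTCF peaks on the main chromosomes (32.2%) because they overlapped no larval Pita, Su(Hw) or CP190 peak by even 1 bp, and they are called CP190-free peaks here. The 7 deposited peak lists together hold 14902 peaks on these chromosomes. All positions are on the dm6 build.

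CTCF binds DNA through a cluster of C2H2 zinc fingers and is known in flies for its role at domain boundaries, among them those of the Bithorax complex. Pita and Su(Hw) are further zinc finger proteins of insulators. CP190, which has a BTB domain, is a partner that each of them can bring to DNA. A CTCF site with no CP190 peak is therefore a site at which the DNA-binding protein was detected and its common partner was not listed.

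The lists come from chromatin immunoprecipitation and sequencing of whole animals of the y1w1118 strain. Larvae of the genotype dCTCFwt gave 4 CTCF, 2 Pita and 2 Su(Hw) samples, and adults of this genotype gave 2 of each. The protocol speaks of larval chromatin and says nothing of adults. CTCF was precipitated through an HA tag, so the dCTCFwt animals of the CTCF, Pita and Su(Hw) lists carry tagged CTCF. The larval CP190 list names no genotype. Of the 18 CP190 samples 14 came from larvae with the dCTCFdeltaCP allele, alone or with SuHwdelta114, PitadeltaCP1 or both, so absence from that list is absence from a list that may mix genotypes. Per their columns the lists each join 2 input lists, which no label ties to single samples. A peak therefore has 1 value and no error between animals, read depth is unknown, and every test below takes the peak as its unit and describes the lists only. Whole animals mix cell types, so a weak peak in all cells cannot be told apart from a strong peak in few.

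Most CP190-free peaks were weak, and a few were among the strongest of the genome. The strength of a peak is the authors' fold enrichment over a control that the sources used here do not name. It ran from 1.73 to 184, with a median of 3.06 (quartiles 2.46 and 5.37), in CP190-free peaks. In the 267 CTCF-only peaks that carried CP190 the median was 38.8 (quartiles 8.90 and 77.9). Of the CP190-free peaks 189 lay below 5-fold, 229 below 10-fold, 19 between 10-fold and 20-fold and 4 between 20-fold and 100-fold. The remaining 8 were at 123-fold or more. These values come from the list that chose the peaks and are given with no test. CP190-free peaks were also narrow, with a median width of 452 bp against 1288 bp in CP190-carrying peaks. In the second input list their −log10 p was a median 1.01 times that in the first, with a range from 0.567 to 1.73 times.

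**Figure D1:**
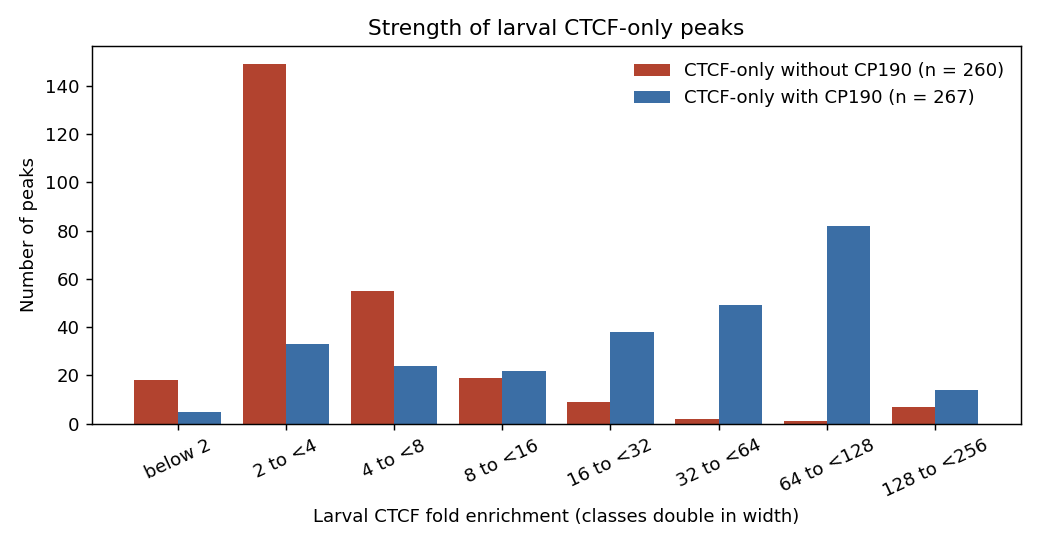
Number of larval CTCF-only peaks (vertical axis) in classes of the authors' fold enrichment (horizontal axis, each class reaching to the double of its lower bound), for CP190-free and CP190-carrying peaks. CP190-free peaks gather between 2-fold and 4-fold (149 of 260), CP190-carrying peaks between 64-fold and 128-fold (82 of 267), and 7 CP190-free peaks stand apart above 128-fold.

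The strongest CP190-free peak, 184-fold, covered bases 14093985 to 14096108 of 2L, with its summit 397 bp from an end of nAChRalpha5, a nicotinic acetylcholine receptor subunit. A peak is called within a gene when its summit lies in the gene's span, and is otherwise named after the nearest gene end, at any distance. Its −log10 p in the authors' deposited table was 12074 in the first input list and 11994 in the second. It was the strongest of all larval CTCF peaks, yet it overlapped no adult CTCF peak. It did overlap an adult Pita peak of 2.70-fold, and the nearest larval CP190 peak was 4358 bp away at 2.87-fold. The next, 179-fold at bases 1883597 to 1885305 of 2L, lay 146 bp from an end of Wdr62, which encodes a spindle and centrosome protein of neural stem cells. Its −log10 p in the authors' deposited table was 12181 and 12084, it had a 118-fold peak in adults, and the nearest CP190 peak, 23920 bp away, was itself strong at 59.8-fold.

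Of the 8 peaks above 100-fold 5 were on X, which held 20.2% of all larval CTCF peaks at any strength. The share on X among all larval CTCF peaks of this strength was not counted. CP190-carrying peaks of this strength lay on X too, for example within CG33557 (172-fold) and near Tak1 (162-fold). The 5 CP190-free peaks lay within the long non-coding RNA gene lncRNA:CR45668 (168-fold), near Socs16D (166-fold), a member of the family of suppressors of cytokine signalling, and within baz (165-fold), the cell polarity gene bazooka. The others were near snoRNA:Psi28S-3342 (156-fold), which guides a modification of ribosomal RNA, and within raskol (123-fold), a Ras GTPase-activating protein. The baz, raskol and Socs16D sites lay on a stretch of X from base 17175308 to base 17821880, with a 20.5-fold CP190-free peak near CG4991 just before it, at 17090680 to 17091565. The last of the 8, 147-fold at bases 14110683 to 14112697 of 3L, lay 786 bp from an end of Sox21b, a transcription factor gene. All of these except the nAChRalpha5 site had an adult CTCF peak, from 79.7-fold at baz to 143-fold at lncRNA:CR45668.

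Below a gap in strength came the sites near Obp99b (51.0-fold), an odorant binding protein, and at an end of Nin (49.5-fold), the microtubule protein ninein. Their adult CTCF peaks were 48.1-fold and 93.7-fold. Next were the peaks within lncRNA:CR44717 (24.8-fold), near CG4991 (20.5-fold), within Hr4 (19.4-fold), a nuclear receptor of the ecdysone response, and within MSAmiP (19.1-fold). Those near lncRNA:CR44539 (18.9-fold) and Dll (17.4-fold), the limb selector gene Distal-less, came after them. Among CP190-carrying peaks 154 of 156 from 10-fold to below 100-fold, and 39 of 40 from 100-fold upward, had an adult CTCF peak. Of the 31 CP190-free peaks of at least 10-fold 28 had one. The 3 exceptions were the nAChRalpha5 site, a site within lncRNA:CR32773 (16.5-fold), whose nearest gene end, 21666 bp away, was that of the T-box gene bi, and a site near bisc (14.3-fold). The next strongest without an adult peak were those of Rnb (9.79-fold) and CG43739 (7.87-fold). The strongest peaks by chromosome were those near nAChRalpha5, Wdr62 and Nin on 2L, near Dll, bisc and psq (7.28-fold), which encodes a BTB-domain protein, on 2R, and near Sox21b, lncRNA:CR44717 and lncRNA:CR44539 on 3L. On 3R they were those near Obp99b, within MSAmiP and near CG34375 (17.3-fold). The only CP190-free peak of chromosome 4 was at 7.74-fold, with no adult CTCF peak. At the other end of the list stood peaks within chrb (1.73-fold), ena (1.79-fold), which encodes the actin regulator Enabled, and Xrp1 (1.79-fold), none with an adult CTCF peak.

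The distance to CP190 belongs to what the rule used and is given as a description only. The nearest CP190 peak was a median of 8701 bp away (quartiles 3060 and 20295 bp), and 245 of the 260 were at least 1000 bp from any. The closest was a 5.85-fold peak within CG9485 on 2R, 134 bp from a CP190 peak of 2.26-fold. It was followed by a peak near the wing gene a, 217 bp away (2.60-fold), and peaks within CG32425 at 225 bp (2.89-fold) and within sdt, the polarity gene stardust, at 297 bp (2.001-fold) and 307 bp (4.43-fold). Just outside the rule, the CTCF-only peaks with the least CP190 overlap lay within Gug (127 bp, 1.78-fold), l(2)34Fd (210 bp, 2.03-fold), near CG17450 (224 bp, 5.08-fold), and within CG32264 (230 bp, 14.9-fold) and for (246 bp, 2.18-fold). Their CP190 peaks were from 2.54-fold to 3.10-fold. The farthest CP190-free peaks were 237321 bp away, near CG34106 on 2L (10.0-fold), 107390 bp away, near beat-IIIc on 2L (15.0-fold), a member of the beaten path family of axon guidance proteins, and 101080 bp away, within the homeodomain gene hth on 3R (2.22-fold). The first and second of these had adult CTCF peaks of 20.5-fold and 7.43-fold, the hth site 2.22-fold. The rule also removed overlaps with larval Pita and Su(Hw), so distances to their peaks are likewise a description only. Within 1000 bp of a Pita peak lay 7 CP190-free peaks, and 19 lay within 1000 bp of a Su(Hw) peak. The median distances were 31193 bp to Pita and 14586 bp to Su(Hw). For CP190-carrying peaks, under the same exclusion, they were 30721 bp and 17423 bp.

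**Figure D2:**
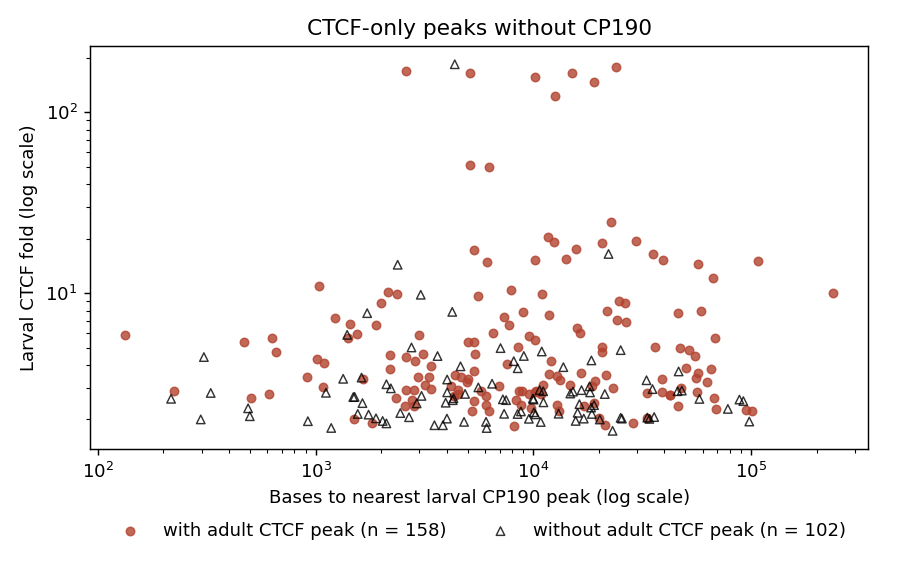
Larval CTCF fold (vertical axis, log scale) against the number of bases to the nearest larval CP190 peak (horizontal axis, log scale) for the 260 CP190-free peaks, with filled circles for the 158 that overlap an adult CTCF peak and open triangles for the 102 that do not. The 8 peaks above 100-fold lie from 2596 bp to 23920 bp from CP190, and the peak with no adult CTCF peak among them is that near nAChRalpha5.

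The adult CTCF list, which the rule did not use, held a peak at 158 of the 260 CP190-free peaks (60.8%, exact 95% interval 54.5% to 66.7%). Among all larval CTCF peaks 69.4% had an adult CTCF peak. In CP190-carrying peaks the share was 83.1% (222 of 267, 78.1% to 87.4%), which gave an odds ratio of 0.314 for CP190-free against CP190-carrying peaks (0.209 to 0.471 at 95% confidence; p = 3.79e-08 by a two-sided Fisher exact test, after Benjamini-Hochberg adjustment over 6 tests). The difference depended on the strength of the peak. Pooled over quartiles of fold of all larval CTCF peaks the odds ratio was 2.14 (95% interval 1.17 to 3.92, Mantel-Haenszel adjusted p = 0.0213, and 0.0166 by an exact conditional test added after seeing the data, as the strongest quartile holds 8 CP190-free peaks).

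This pooled value is not common to the quartiles, as the odds ratio was above 1 in the weaker pair and below 1 in the stronger pair. It passed the test in the weakest quartile alone. There, up to 2.85-fold, 37.4% of CP190-free peaks had an adult CTCF peak (40 of 107, 28.2% to 47.3%) against 3.33% of CP190-carrying peaks (1 of 30, 0.0844% to 17.2%). The odds ratio was 17.3 (two-sided Fisher exact adjusted p = 4.10e-04 over 4 tests, chosen after seeing the data), at nearly the same median fold of 2.33 and 2.35. In the next quartile, from 2.86-fold to 7.92-fold, the shares were 72.8% of 114 and 59.4% of 32 (odds ratio 1.83, adjusted Fisher exact p = 0.190). In the quartile up to 51.0-fold they were 90.3% of 31 and 97.8% of 91 (odds ratio 0.210), and in the strongest 87.5% of 8 and 99.1% of 114 (0.0619, adjusted Fisher exact p = 0.170 for each). The last comparisons rest on 3 and 1 CP190-free peaks and on 2 and 1 CP190-carrying peaks without an adult CTCF peak. Above the weakest quartile the median folds of CP190-free and CP190-carrying peaks were 3.87 and 4.83, then 14.8 and 25.3, then 166 and 84.8. Strength was therefore not matched there. The odds ratio differed between peaks at or below the median fold (2.64) and above it (0.130), with a likelihood-ratio p of 6.50e-04 for the interaction. CP190-free peaks were also compared with the 281 larval CTCF peaks that overlap Pita or Su(Hw), of which 64.4% had an adult CTCF peak. The odds ratio was 0.856 (95% interval 0.604 to 1.21, adjusted Fisher exact p = 0.423), but within quartiles of fold it was 3.20 (Mantel-Haenszel adjusted p = 6.04e-06, exact conditional 3.43e-06).

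**Figure D3:**
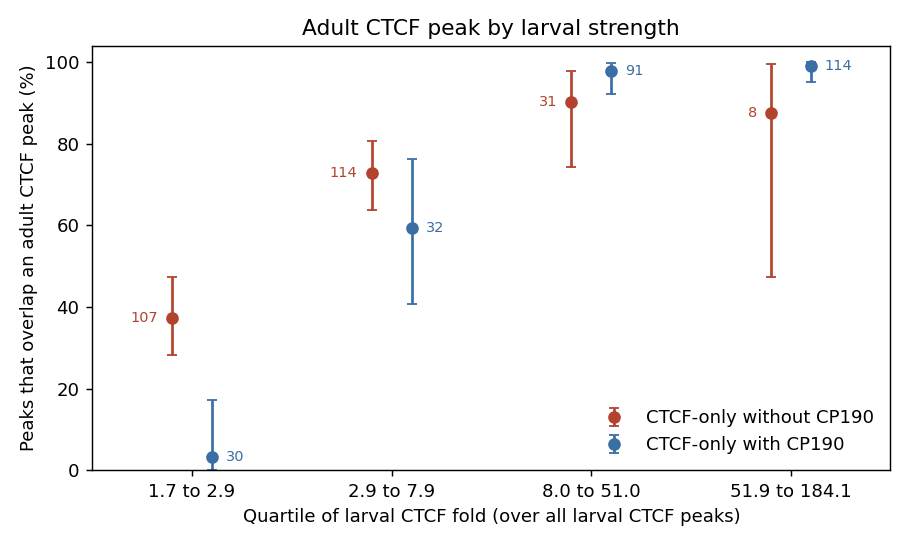
Share of larval CTCF-only peaks that overlap an adult CTCF peak (vertical axis, %) by quartile of larval CTCF fold (horizontal axis), with exact 95% intervals and the number of peaks beside each point, CP190-free left and CP190-carrying right in each quartile. In the weakest quartile 37.4% of CP190-free and 3.33% of CP190-carrying peaks had an adult CTCF peak.

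The shared sites coincided closely. Of the 158 CP190-free peaks with an adult CTCF peak 154 (97.5%) had their larval and adult summits within 50 bp of each other, at a median distance of 10 bp. This was no trait of their own, as it held for 221 of 222 CP190-carrying peaks (99.5%), at a median of 6 bp. Where several adult peaks overlapped, the strongest was taken. The larval fold of the 158 CP190-free peaks had a median of 3.82 and their adult fold, from another list with its own background, a median of 4.19. Across these peaks the log2 folds of the stages had a Pearson r of 0.881 and a Spearman rho of 0.735. In the 222 CP190-carrying peaks, which had a higher median larval fold of 53.9, they were 0.903 and 0.906. All of these values describe peaks of 2 lists that share neither libraries nor stage, and peaks are not replicates. The 102 CP190-free peaks found only in larvae had a median of 2.58-fold, and 94 of them were below 5-fold.

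**Figure D4:**
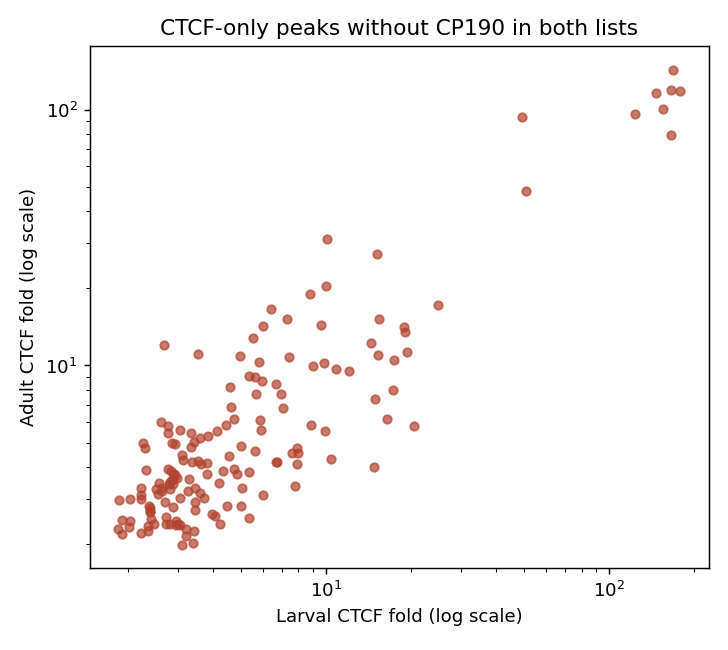
Adult CTCF fold (vertical axis, log scale) against larval CTCF fold (horizontal axis, log scale) for the 158 CP190-free peaks present in both lists. The points form a band from about 2-fold to above 100-fold on each axis, with 7 peaks of more than 100-fold in larvae at 79.7-fold to 143-fold in adults.

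Adult peaks of the other zinc finger proteins were rare at CP190-free sites. Only 9 of 260 (3.46%, exact 95% interval 1.59% to 6.47%) overlapped an adult Pita peak, against 13.9% of CP190-carrying peaks (37 of 267, 9.95% to 18.6%) and 27.8% of all larval CTCF peaks. The odds ratio was 0.223 (95% interval 0.105 to 0.472, two-sided Fisher exact adjusted p = 3.94e-05). Within quartiles of fold it was 0.490 and did not pass (Mantel-Haenszel adjusted p = 0.152, exact conditional 0.148). The rule removed larval Pita and Su(Hw) peaks from both classes, so low adult shares of these proteins in them were partly set in advance. The shares of all larval CTCF peaks include the 281 that overlap larval Pita or Su(Hw), and are no like background. The 9 sites are those with Pita listed in adults only. The 3 of them with the strongest larval CTCF peaks were the nAChRalpha5, Sox21b and Obp99b sites, with adult Pita peaks of 2.70-fold, 4.98-fold and 2.95-fold. Over all 9 the adult Pita fold ran from 1.76 near otp to 6.65 near lncRNA:CR46004, both sites of weak larval CTCF. Su(Hw) was listed in adults at 1 CP190-free peak, within CG15431 on 2L (3.93-fold in adult Su(Hw)), against 6 of 267 CP190-carrying peaks and 12.7% of all larval CTCF peaks. The odds ratio of 0.168 did not pass (95% interval 0.0201 to 1.40, adjusted Fisher exact p = 0.147).

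CP190-free peaks lay near gene ends less often, and inside genes more often, than CP190-carrying peaks. The gene table gives no strand, so either end of a gene counted, and an end can be a start or a terminus of transcription. The summit was within 500 bp of a gene end in 28.8% of CP190-free peaks (75 of 260, exact 95% interval 23.4% to 34.8%) and in 68.2% of CP190-carrying peaks (182 of 267, 62.2% to 73.7%), beside 50.6% of all larval CTCF peaks. The odds ratio was 0.189 (95% interval 0.131 to 0.275, two-sided Fisher exact adjusted p = 5.88e-19). The median distance was 1884 bp in CP190-free and 200 bp in CP190-carrying peaks. The summit lay within a gene span in 65.8% of CP190-free peaks (171 of 260) and 35.6% of CP190-carrying peaks (95 of 267), beside 46.9% of all larval CTCF peaks. This gave an odds ratio of 3.48 (95% interval 2.43 to 4.98, adjusted Fisher exact p = 1.26e-11 over 9 tests added after seeing the data). Gene spans cover 69.6% of these chromosomes up to their last gene end, so the share of CP190-free peaks within genes was close to the share of the genome. Both within a gene and over 500 bp from any gene end were 138 of the 260 (53.1%), against 16.9% of CP190-carrying peaks and 31.7% of all larval CTCF peaks (256 of 808). Within quartiles of fold the odds ratios were 0.260 for gene ends (exact conditional adjusted p = 2.62e-08) and 1.70 for gene spans (exact conditional p = 0.0235, a single test). In the more significant part of the CTCF list, from its median −log10 q upward, 41 peaks were CP190-free. There the odds ratios were 0.452 and 1.63, and neither passed (adjusted Fisher exact p = 0.0614 and 0.359).

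**Figure D5:**
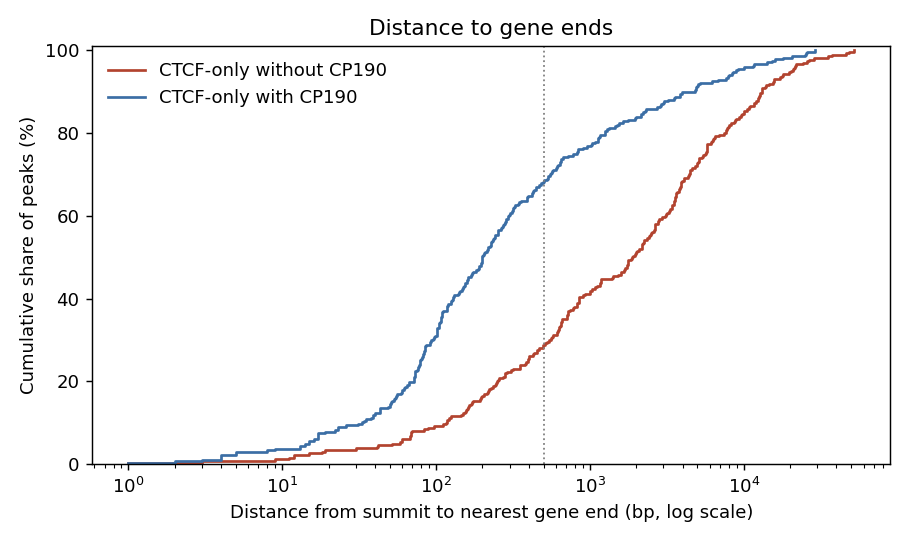
Cumulative share of peaks (vertical axis, %) by distance from the summit to the nearest gene end (horizontal axis, bp, log scale) for CP190-free and CP190-carrying CTCF-only peaks, with a dotted line at 500 bp. At 500 bp the curves stand at 28.8% for CP190-free and 68.2% for CP190-carrying peaks.

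The shares near a gene end lay closer together only in the stronger pair of quartiles, which hold few CP190-free peaks, and were not tested by quartile. In the weakest quartile of fold 28.0% of CP190-free and 70.0% of CP190-carrying peaks were near a gene end, and in the next 21.9% and 68.8%. In the quartile above they were 45.2% (14 of 31) and 64.8%. In the strongest quartile the shares were 75.0% (6 of 8) and 70.2%. Among CP190-free peaks the share with an adult CTCF peak was 61.3% of the 75 near a gene end and 60.5% of the 185 farther away. It was 59.6% of the 171 within genes and 62.9% of the 89 outside them.

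The 171 summits within genes fell in 158 genes, whose spans, counted per summit, had a median of 31649 bp against 10658 bp for CP190-carrying peaks within genes. For CTCF peaks that overlap Pita or Su(Hw) the median was near that of CP190-free peaks, at 30033 bp. Over all larval CTCF peaks within genes it was 26297 bp. Of the 171 CP190-free summits 59 lay in genes longer than 50000 bp, beside 120 of the 379 summits within genes among all larval CTCF peaks. Of the 158 genes 9 held more than 1 CP190-free peak. MSAmiP held 4 (from 2.77-fold to 19.1-fold), sdt 3 (from 2.001-fold to 4.43-fold, none in the adult list) and CG31145 3 (from 1.87-fold to 3.12-fold, all in the adult list). The potassium channel gene Sh held 2 (2.99-fold and 2.78-fold), both in the adult list, as did the phosphodiesterase gene Pde1c (9.04-fold and 3.81-fold). Of the 75 peaks near a gene end 58 were nearest to a protein-coding gene and 14 to a long non-coding RNA gene. Protein-coding genes are 13946 of the 17807 genes on these chromosomes, a similar share.

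MSAmiP spans bases 16831115 to 16896293 of 3R, between abd-A and Abd-B of the Bithorax complex, the Hox genes of the posterior segments. Its CP190-free peaks at 16882320 to 16883209 (19.1-fold) and 16856927 to 16857973 (9.84-fold) had adult CTCF peaks of 13.5-fold and 10.2-fold. Those at 16886456 to 16886845 (2.91-fold) and 16847210 to 16847649 (2.77-fold) had none. Of the Hox genes themselves, Antp held a CP190-free peak at 6970360 to 6971215 of 3R (8.86-fold in larvae, 5.86-fold in adults), and Abd-B held a peak of 2.22-fold with none in adults. These 2 are 0.769% of CP190-free peaks, beside 8 of all 808 larval CTCF peaks (0.990%) within or near a Hox gene.

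CP190-free peaks were more often on X than CP190-carrying peaks. X held 65 of 260 (25.0%, exact 95% interval 19.9% to 30.7%) against 31 of 267 (11.6%, 8.03% to 16.1%), with 20.2% of all larval CTCF peaks on X. The odds ratio was 2.54 (95% interval 1.59 to 4.05, two-sided Fisher exact adjusted p = 1.07e-04). Larval CTCF peaks that overlap Pita or Su(Hw) had 23.8% on X. X makes up 17.6% of the length of these chromosomes. Within quartiles of fold the odds ratio was 3.64 (exact conditional adjusted p = 1.23e-04). In the more significant part of the list it was 2.52 and did not pass (adjusted Fisher exact p = 0.0614). The median fold of CP190-free peaks was 3.44 on X, and from 2.59 on 2R to 3.36 on 3R among the autosome arms. Adult CTCF peaks were at 40 of the 65 on X, 24 of 47 on 2L, 23 of 48 on 2R, 36 of 52 on 3L and 35 of 47 on 3R.

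Peaks without CP190 of the other zinc finger proteins are the most similar classes, and were compared after seeing the data. The 301 Pita-only peaks without CP190 were near a gene end in 47.5% of cases and the 2141 such Su(Hw) peaks in 11.1%, so the 28.8% of CTCF lay between them. The odds ratio of CTCF was 0.448 against Pita (adjusted Fisher exact p = 1.39e-05 over 9 tests) and 3.26 against Su(Hw) (adjusted p = 1.64e-12). Summits within genes made up 57.1% of the Pita peaks (odds ratio 1.44, adjusted Fisher exact p = 0.0484) and 68.7% of the Su(Hw) peaks (0.877, 95% interval 0.668 to 1.15, adjusted p = 0.404). A peak of the same protein in adults was found at 60.8% of CTCF peaks, against 72.1% of Pita peaks (odds ratio 0.600, adjusted Fisher exact p = 0.00950) and 82.2% of Su(Hw) peaks (0.336, adjusted p = 3.99e-13). These lists differ in length and stringency. The irreproducible discovery rate reached 0.04999 in the Pita list of larvae and 0.04986 in the Su(Hw) list of adults, and at most 0.00999 in the others. On X lay 24.3% of the Pita peaks (odds ratio 1.04, 95% interval 0.708 to 1.53, adjusted Fisher exact p = 0.845) and 18.5% of the Su(Hw) peaks (1.46, adjusted p = 0.0233). With each list restricted to its more significant peaks, the Pita contrasts for gene ends and for adult peaks missed the threshold. At this setting summits within genes were less frequent than in Su(Hw)-only peaks, with an odds ratio of 0.323 (adjusted Fisher exact p = 0.00157), a contrast that did not pass over all peaks. The contrasts for summits within genes against Pita and for X against Su(Hw) passed over all peaks but missed the threshold at this setting and in some others.

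The 17 gene groups listed for this report were touched by CP190-free peaks about as often as by larval CTCF peaks at large. A peak touched a gene when its summit lay within it or within 500 bp of an end. This was so for 16 of 260 CP190-free peaks (6.15%), 17 of 267 CP190-carrying peaks (6.37%) and 51 of all 808 larval CTCF peaks (6.31%). The groups are short lists and leave out further genes of the same kind, so each count holds for the list alone. A list of 18 ion channels of nerve and muscle had 3 peaks (1.15%), beside 6 of all larval CTCF peaks (0.743%). These were peaks within Ca-alpha1T, a T-type calcium channel (3.93-fold), and the pair within Sh. Channel genes outside that list also held CP190-free peaks, among them SLO2 with 2 (4.75-fold and 2.81-fold), picked after their values were seen. The 10 nicotinic acetylcholine receptor subunits had the nAChRalpha5 peak, and no other larval CTCF peak touched one.

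Genes for tRNAs had 2 peaks, beside 4 of all larval CTCF peaks, near tRNA:Glu-TTC-1-5 (6.92-fold) and tRNA:His-GTG-1-3 (5.01-fold), both in the adult list. The snoRNA and snRNA genes had 2, beside 5 of all, near snoRNA:Psi28S-3342 (156-fold) and, again at the tRNA:Glu-TTC-1-5 site, snoRNA:185. Symbols that start with His gave 2, beside 3 of all. They were His3.3B, a histone variant gene (9.91-fold, at the same peak as Bap111), and HisRS (10.9-fold), which is no histone gene but encodes a tRNA synthetase. Chemosensory proteins gave 2, beside 5 of all, at Obp99b (51.0-fold) and the channel gene ppk9 (2.91-fold). The heat shock genes gave Hsp27 (3.89-fold), the only larval CTCF peak of that list. The muscle genes gave Zasp52 (1.999-fold), beside 2 of all, and the cuticle genes Cpr31A (2.06-fold), beside 3 of all. None of these last peaks was in the adult list.

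The other lists had no CP190-free peak, and few larval CTCF peaks touched them. Of all larval CTCF peaks 6 touched the 92 cytoplasmic ribosomal protein genes, 1 the 73 mitochondrial ones, 3 the 260 microRNA genes and 2 the 186 chemoreceptors. None touched the 25 segmentation genes, 2 touched the 9 listed Notch pathway genes and 1 the 12 insulator protein genes. The Notch co-activator gene mam, which is not on that list, held a CP190-free peak of 2.15-fold at bases 14004474 to 14004894 of 2R.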

How the data were processed

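Per the labels, CTCF (HA tag), Pita, Su(Hw) and CP190 were immunoprecipitated from whole animals. The submitters' processing notes name dm6 and, among tools, MACS2, deepTools, Picard, Bowtie2, cutadapt and bedtools. Their roles and the control are not given here. The 7 peak lists have the layout of an irreproducible discovery rate (IDR) comparison of 2 inputs. The authors' deposited values are a fold enrichment (a linear ratio), −log10 p and q values, the −log10 IDR and a scaled IDR score, which was not used.

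Only peaks on the chromosomes X, Y and 4 and the arms of 2 and 3 entered. Of the 814 larval CTCF peaks 6 lay elsewhere. Peaks were shared when they overlapped by 1 bp or more. Gene positions are from the RefSeq table of the same assembly, Release 6 plus ISO1 MT (17807 genes), which lacks strands. Distances are therefore to either end of a gene and not, as first intended, to its start. Without a genome, the intended search for the CTCF word was left out and no sequence is printed. A peak is named after the gene that holds its summit (the shortest protein-coding gene first), otherwise after the gene with the nearest end.

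Shares have exact Clopper-Pearson 95% intervals and odds ratios Woolf 95% intervals, which cover counting error only. Shares were compared by two-sided Fisher exact tests, or Mantel-Haenszel and exact conditional tests within quartiles of fold, with Benjamini-Hochberg adjustment within each family and a threshold of 0.05 (Python 3.11.15, scipy 1.17.1, statsmodels 0.14.6). The interaction was tested in a logistic model. The code was tested on simulated data and against bedtools. The peaks, gene groups and tests were chosen with earlier results of these data known. Of the listed symbols h, otd, Dl and CG7928 were not matched. Named are the 15 strongest peaks and the 3 weakest, the strongest 3 by chromosome, the 5 nearest to the limit of the rule on each side and the 3 farthest from CP190. Also named are the strongest with and without adult peaks and up to 3 per gene group, and genes that hold several peaks were added after seeing the values.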

Additional observations from a re-analysis of the deposited data

Results flagged for a closer look

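The odds ratio of an adult CTCF peak for CP190-free against CP190-carrying CTCF-only peaks differed with the strength of the larval peak. At or below the median larval fold of 7.95 it was 2.64 (55.7% of 221 against 32.3% of 62). Above it, it was 0.130 (89.7% of 39 against 98.5% of 205). The likelihood-ratio p of the interaction was 0.000650, from a test chosen after seeing the data.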

How the results depend on the processing

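No paired analysis was possible because the lists are not tied to samples, and for the same reason no replicate could be left out. The number of CP190-free peaks, 260, ranged from 194 to 380 over the settings other than strength and was 41 in the more significant part of the CTCF list, from its median −log10 q upward. At that setting, against CP190-carrying peaks, the odds ratios were 2.52 for X, 0.584 for adult Pita, 0.452 for gene ends and 1.63 for summits within genes, none past the threshold. Against Pita-only peaks without CP190 they were 0.440 for adult peaks and 0.920 for gene ends, also not past it, and 0.907 for summits within genes, where the direction turned. Against Su(Hw)-only peaks they were 1.86 for X, no longer past it, and 0.323 for summits within genes, now past it. The setting leaves fewer peaks in each class, and the odds ratios moved as well. Within quartiles of fold the odds ratio of an adult CTCF peak turned to 2.14 against CP190-carrying peaks and to 3.20 against CTCF peaks with Pita or Su(Hw), and that of adult Pita was 0.490 and missed the threshold. With the other larval lists restricted to their more significant peaks, the odds ratio of an adult CTCF peak against CTCF peaks with Pita or Su(Hw) turned to 1.03. With at least 1000 bp to CP190 the odds ratios for X were 0.973 when set against Pita-only peaks, where the direction turned, and 1.39 when set against Su(Hw)-only peaks, not past the threshold, and that for summits within genes against Pita-only peaks was 1.35. The last was 1.39 with overlap of 0.5 of the shorter peak and 1.51 on the autosome arms, each short of the threshold. For all of these changes the cause was not tested. Of 100 odds ratios under alternatives 82 kept their direction and their side of the threshold, among them every alternative for adult CTCF peaks against CP190-carrying peaks except the quartiles of fold. Depth is unknown, so absence from a list is not absence of binding.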

Other observations

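The spacing of CP190-free peaks was described with no test. The nearest other larval CTCF peak was a median of 42921 bp away, against 44279 bp for CP190-carrying peaks. It was another CP190-free peak for 81 of the 260 (31.2%) and a CP190-carrying peak for 74 (28.5%). For 105 (40.4%) it was a peak with Pita or Su(Hw). These classes made up 32.2%, 33.0% and 34.8% of all larval CTCF peaks. The nearest neighbour was also within 10000 bp in 18, 14 and 24 cases, in the same order.

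Some CP190-free peaks, singled out after seeing their values, differ in shape or place from the rest. The widest, 6243 bp, covered bases 11977944 to 11984186 of 3L with its summit within CG43896, at 2.41-fold. It overlapped an adult CTCF peak of 2.50-fold whose summit was 2862 bp away. A peak of 2360 bp within sunn, a cohesion gene of meiosis, was at 1.85-fold, with an adult peak of 2.30-fold and summits 805 bp apart. A peak of 1.95-fold lay within the eye colour gene w, at bases 2790776 to 2791226 of X, 98158 bp from the nearest CP190 peak and absent from the adult CTCF list. The site 11 bp from an end of stj, a calcium channel subunit gene outside the list of ion channels, stood at 6.41-fold in the larval and 16.6-fold in the adult list, and the CG34106 site at 10.0-fold and 20.5-fold, in lists whose folds are not on a common scale.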
